A study of Homo sapiens with 3 samples.

Results

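TMPO-AS1, a long non-coding RNA, is transcribed from the strand opposite to TMPO, the gene of the lamina-associated polypeptides LAP2. It was followed here with TMPO and with 8 further genes of the nuclear lamina and inner nuclear membrane: LMNA, LMNB1, LMNB2, LBR, EMD, BANF1, LEMD2 and LEMD3. These 10 genes were taken by name from 33616 genes that had a probe set paired with exactly 1 symbol in the platform annotation. Each had 1 such probe set, so no choice between probe sets was needed. The cells were MDA-MB-231, an established human triple-negative breast cancer line with mesenchymal features, kept in DMEM and transfected for 48 hours. Control cells received a control siRNA (siControl, 1 Affymetrix array). Targeted cells received siTMPO-AS1 #1 (1 array) or siTMPO-AS1 #2 (1 array), small interfering RNAs that bring about cleavage of RNA with a matching sequence. All 3 groups were transfected cells of the same line, and untransfected cells were not analysed here. The labels do not state that the RNA samples came from separate cultures. The p-values below therefore rest on the spread between the siRNA arrays, which limma draws toward the typical spread over all genes tested. Part of that spread may be technical, and part may be the difference between one siRNA and the other. The lone control array is assumed to vary like the siRNA arrays.

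The nuclear lamina is a meshwork of A-type and B-type lamin filaments under the inner nuclear membrane. It gives the nucleus its shape, and it holds silent chromatin at the nuclear edge. LAP2 proteins, emerin, LEMD2 and LEMD3 share the LEM domain, which binds the small DNA-bridging protein BANF1, also called barrier-to-autointegration factor. LBR, the lamin B receptor, is a membrane protein that binds B-type lamins and heterochromatin protein HP1 and also carries sterol reductase activity. In mitosis the lamina is taken apart and then rebuilt around the daughter chromosomes, and LMNB1 and LBR are known to decline when cells enter senescence.

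Values are log2 signals per probe set, as the authors made them with RMA, so 1 unit is a 2-fold step. A log2 ratio is an siRNA array minus the control array. Both ratios of a gene share the single control array, and a deviation of that array moves both the same way. A gene entered the test if its 3 arrays averaged at least 4.42, the median over all genes, which kept 16808 genes and 9 of the 10 studied. LMNB2 lay under this filter. Array medians over all probe sets were 3.73 to 3.75. Arrays have no read depth, and their number limits the precision. Spiked-in control transcripts, 8 probe sets, differed from the control array by 0.20 at most on either siRNA array, apart from a difference of 0.74 for lys with siTMPO-AS1 #2. Of 6 mesenchymal markers that mark this line, 5 passed the filter, among them VIM with 16.52, 16.28 and 16.45 on the siControl, #1 and #2 arrays, and CDH2 did not. The epithelial cadherin CDH1 (3.64, 3.08 and 3.37) and the oestrogen receptor ESR1 (3.34, 3.61 and 3.51) were under the filter on every array. Other markers of their lists were not. Of 5 epithelial markers 2 passed, EPCAM and CLDN4 (10.92 and 10.17 in control cells). Of 7 luminal markers 4 passed, with GATA3 at 5.25, KRT8 at 14.82, KRT18 at 13.00 and KRT19 at 12.23 in control cells.

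The targeted RNA had a slightly lower signal with both siRNAs. On the control array TMPO-AS1 had 4.83, against 4.37 for siTMPO-AS1 #1 and 4.28 for #2. The siRNA arrays were close together, 0.09 apart, and both lay under 4.42, the level used as the filter on dim genes. The control array was the 1 array above that level. The log2 ratios were -0.46 and -0.55. Among 2362 tested genes within 0.5 of its mean signal, the SDs of the ratios were 0.54 and 0.50, which are close to the TMPO-AS1 ratios in size. Background control probe sets of the array ran from 2.08 to 2.99 where their names give 10 or more G or C bases and from 4.70 to 8.52 where they give 6 or fewer. The TMPO-AS1 signals lie between these ranges or at the lower end of the second. No detection call per probe set was used here, so no share of remaining RNA is given. TMPO-AS1 entered the fit through its control value, the 1 array above the filter level, so its limma mean ratio of -0.51 (SE 0.44, n = 2 siRNA arrays) is given as a description without its p.

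TMPO, the sense partner, was lower with both siRNAs. Its signal was 14.28 in control cells, 13.39 with #1 and 13.76 with #2, so control was the highest array and #1 the lowest. The remaining signal was 54.0% and 69.9% of control (log2 ratios -0.89 and -0.52). TMPO lay far above the filter, where the ratios of 662 genes of like brightness had SDs of 0.89 and 0.58. Ratios lower than that of TMPO were seen for 11.6% of genes tested with #1 and 12.4% with #2. limma gave a mean ratio of -0.70 (SE 0.46, n = 2, adjusted p = 1.00). The labels do not say which strand the probes of each set read, and the transcripts overlap, so signal from one strand cannot be told apart from the other.

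The start regions of both transcripts show how closely they are placed. In the RefSeq tables TMPO-AS1 starts 653 bases inside TMPO from the first of its 2 listed starts, on the opposite strand, so each transcript runs toward the start of the other. The 250 bases before each start are printed below from RefSeq (GRCh38.p14), 5′ to 3′ on the strand of the gene. TMPO lies on the plus strand at chr12:98515323-98515572 and TMPO-AS1 on the minus strand at chr12:98516227-98516476. Capitals mark matches on either strand to 6 short motifs. The CCAAT box was searched by its name and the GC box as GGGCGG. The core of the cell cycle element known as CHR was searched as TTTGAA, and the E-box motif was searched as CACGTG. The E2F core was searched as TTCGCGC and, in a second form, as TTGGCGC.
TMPO: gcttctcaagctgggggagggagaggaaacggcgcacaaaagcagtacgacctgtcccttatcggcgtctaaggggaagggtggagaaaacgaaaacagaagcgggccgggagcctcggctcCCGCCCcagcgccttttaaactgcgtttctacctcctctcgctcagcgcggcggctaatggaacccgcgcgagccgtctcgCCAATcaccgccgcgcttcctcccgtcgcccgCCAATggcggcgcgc
TMPO-AS1: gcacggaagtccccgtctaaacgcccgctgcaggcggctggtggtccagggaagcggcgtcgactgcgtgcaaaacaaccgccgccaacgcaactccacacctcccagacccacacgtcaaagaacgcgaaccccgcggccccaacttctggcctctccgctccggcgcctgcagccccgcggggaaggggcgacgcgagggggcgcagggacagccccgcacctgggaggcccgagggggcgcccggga
The TMPO window held CCAAT boxes beginning 47 and 15 bases before the start and a GC box 128 bases before it. The TMPO-AS1 window held none of the searched letters, although its G and C content was 72.4% against 64.8% for TMPO. Over the windows of the 10 genes, the CCAAT box was found for 5 (LMNA, LMNB1, LEMD3, TMPO and EMD) and the GC box for 6 (the same 5 and LMNB2). The E-box motif was found for LMNB1, the CHR core for LMNB2, and the forms of the E2F core for 0 of 10. A gene was counted if any of its windows matched, and LMNA, LMNB1 and TMPO had several windows. The shares that follow are per window, so the counts of genes are not directly comparable with them. Of 35116 promoter windows of this length in RefSeq, 32% held the CCAAT box, 42.6% the GC box, 13.3% the CHR core, 6.34% the E-box motif, 1.85% the first E2F form and 2.56% the second. A match here is a description of the letters and shows no binding, and the lack of one says nothing of a factor.

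**Figure D1:**
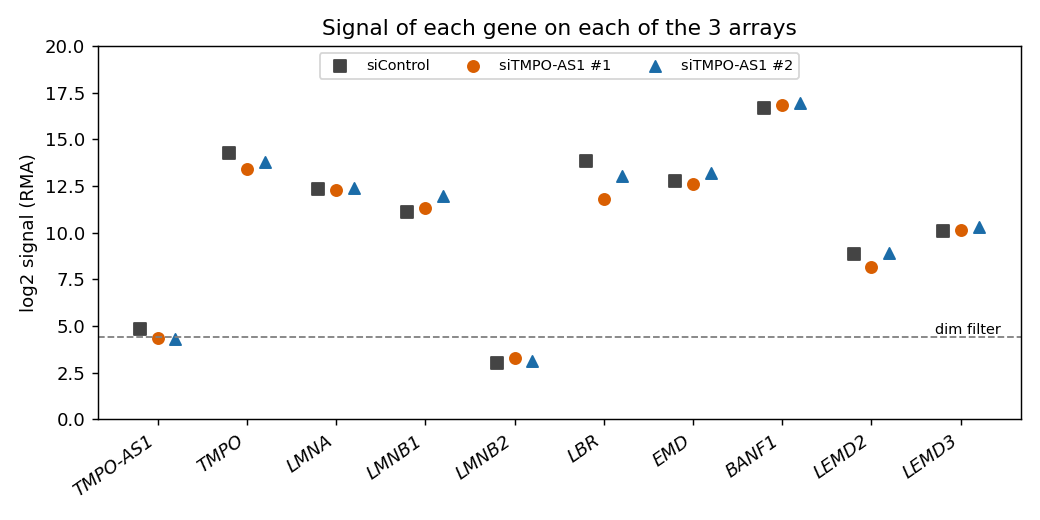
Log2 signal (vertical axis, RMA) of the 10 genes on each array, with squares for siControl, circles for siTMPO-AS1 #1 and triangles for siTMPO-AS1 #2; each mark is 1 array and there are no error bars. LBR shows the widest gap between arrays (13.82, 11.81 and 13.01), while TMPO-AS1 straddles the dashed line of the dim filter and LMNB2 lies under it.

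LBR had the widest range over the 3 arrays of the 10 genes and the ratio farthest from 0 with #1, while with #2 LMNB1 (0.85) lay about as far from control as LBR (-0.80). After quantile normalization these were 0.75 and -0.88. The lamin B receptor had a signal of 13.82 in control cells, against 11.81 with #1 and 13.01 with #2. Control was the highest array, and #1 lay 1.21 below #2. LBR was thus 4.02-fold lower with #1 and 1.74-fold lower with #2 (log2 ratios -2.01 and -0.80). Genes of like brightness, 859 in number, had ratio SDs of 0.98 and 0.64, both smaller than the LBR ratios in size. Lower ratios were seen for 2.66% of genes tested with #1 and 6.09% with #2. In limma the mean ratio was -1.41 (SE 0.67, n = 2, unadjusted p = 0.098, adjusted p = 1.00). The spread between the siRNAs, an SD of 0.85, entered that SE.
The start region of LBR is shown because it carries none of the searched letters and is poor in G and C (36.8%), unlike that of TMPO. It lies on the minus strand at chr1:225428822-225429071 (GRCh38.p14).
LBR: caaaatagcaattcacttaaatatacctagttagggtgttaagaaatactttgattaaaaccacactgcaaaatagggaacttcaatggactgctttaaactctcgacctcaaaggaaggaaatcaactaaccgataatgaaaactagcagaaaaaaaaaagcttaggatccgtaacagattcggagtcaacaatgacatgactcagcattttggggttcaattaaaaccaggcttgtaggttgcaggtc

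Of the lamin genes, LMNA was nearly level on all arrays and LMNB1 was higher on both siRNA arrays. LMNA, which encodes lamins A and C, had 12.34, 12.26 and 12.38 on the siControl, #1 and #2 arrays. These 3 arrays lay within 0.13 of each other, and the ratio with #2 (0.04) turned to -0.02 with arrays centred on their median and to -0.07 after quantile normalization. limma gave a mean ratio of -0.02 (SE 0.44, adjusted p = 1.00). LMNB1, the gene of lamin B1, had 11.09 in control cells, 11.34 with #1 and 11.94 with #2. Control was the lowest array, and the signal was 119% and 180.2% of it (log2 ratios 0.25 and 0.85). With #2, 92.7% of genes tested had a lower ratio than LMNB1. The limma mean ratio was 0.55 (SE 0.50, n = 2, adjusted p = 1.00). Some markers of cell state also differed on the #2 array. The summed signal of 5 epithelial markers was 11.61, 11.94 and 13.50 on a log2 scale, carried by the 2 above the filter, EPCAM (10.92, 11.26 and 13.22) and CLDN4 (10.17, 10.51 and 10.93). CDH1, and CLDN3 with 4.30, 3.98 and 4.28, were not higher with #2 than in control cells, and ESRP1 had 3.76, 3.01 and 5.10. The mesenchymal factor ZEB1 had 15.23, 15.26 and 13.65, while the mesenchymal marker FN1 was higher with #2 (12.01, 11.94 and 13.09). With #2, AXL (13.58, 12.31 and 13.49), CD44 (13.70, 13.43 and 13.60) and VIM lay close to control. The summed signal of the 6 mesenchymal markers was 17.31, 17.08 and 17.04. For 7 luminal markers the summed signal was 15.36, 15.42 and 16.24, carried mostly by KRT8 (14.82, 15.02 and 15.80). KRT18 had 13.00, 12.30 and 13.90, KRT19 had 12.23, 12.40 and 12.31, and GATA3 had 5.25, 6.66 and 5.61. The luminal markers ESR1, PGR and FOXA1 did not pass the filter. The part of these marker differences in the LMNB1 result was not tested. In bulk RNA a change in the kinds of cells and a change in RNA per cell cannot be told apart.

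LMNB2, the gene of lamin B2, could not be followed by its own probe set. That set had 2.99, 3.27 and 3.13, under the dim filter on every array. A brighter set carries LMNB2 together with the microRNA gene MIR7108 in the annotation, which put it outside the rule of 1 symbol. It had 7.50, 7.54 and 7.13 (ratios 0.04 and -0.38), so neither set was as much as 1.5-fold from control with either siRNA.

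Of the other LEM domain genes, LEMD2 was lower with #1, and EMD and LEMD3 lay within 1.5-fold of control with both siRNAs. EMD, the gene of emerin, had 12.74 in control cells, 12.61 with #1 and 13.18 with #2 (ratios -0.13 and 0.44). Control lay between the siRNA arrays. LEMD2 had 8.86, 8.17 and 8.92, so that #1 lay 1.61-fold below control while #2 was level with control (ratios -0.69 and 0.06). After quantile normalization the ratio with #1 was -0.58, short of 1.5-fold. LEMD3, also known as MAN1, which restrains SMAD signalling at the nuclear membrane, had 10.07, 10.13 and 10.28 (ratios 0.06 and 0.21). All 3 arrays of LEMD3 lay within 0.21. Mean ratios in limma were 0.15 (SE 0.50) for EMD, -0.31 (SE 0.54) for LEMD2 and 0.13 (SE 0.44) for LEMD3, each with an adjusted p of 1.00.

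BANF1, the partner bound by LEM domains, had 16.66 in control cells, 16.82 with #1 and 16.94 with #2. The ratios were 0.16 and 0.28, and limma gave a mean of 0.22 (SE 0.44, adjusted p = 1.00). These signals lie above 16, the log2 of the brightest value of a 16-bit scan, as did 1144 of 138745 probe sets on all arrays. A further transformation of the signal by the authors is possible, so each fold holds on the deposited scale alone.

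Counts past 1.5-fold are set beside the shares over all genes tested. TMPO-AS1 is among the 9 through its control value. By at least 1.5-fold, 3 of the 9 tested genes (TMPO, LBR and LEMD2) were lower with siTMPO-AS1 #1, against 18.8% of all genes tested, and 0 were higher, against 16.6%. With siTMPO-AS1 #2, 1 of 9 was lower (LBR), against 10.4%, and 1 was higher (LMNB1), against 16.1%. LBR was the 1 gene lower by 1.5-fold with both siRNAs, where the share of all genes was 4.07%, and 0 were higher with both, against 5.42%. The medians of the 9 genes were -0.13 with #1 and 0.06 with #2, and over all genes tested they were 0.02 and 0.09. Set directly against each other, which leaves out the control array, the siRNA arrays differed by 1.5-fold for 3 of 9 genes, all with the lower signal under #1, against 22.7% of all genes. These were LBR (#2 higher by 1.21 on the log2 scale), LEMD2 (0.75) and LMNB1 (0.60). In the opposite direction there were 0 of 9, against 14.9%. These counts, from 9 genes and 1 array for each siRNA, are near the shares of all genes and are no result about the 9. After adjustment limma called 0 of the 9 genes and 0 of 16808 (0%) at the threshold of 0.05. Before adjustment 261 of the 16808 were under 0.05. With an intensity trend the adjusted count was 0 too, and 287 were under 0.05 before adjustment. The fit had 1 residual degree of freedom, and each siRNA on its own has no test. The typical spread over all genes tested, an SD of 0.41, entered every SE with a weight of 3.28 degrees of freedom.

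**Figure D2:**
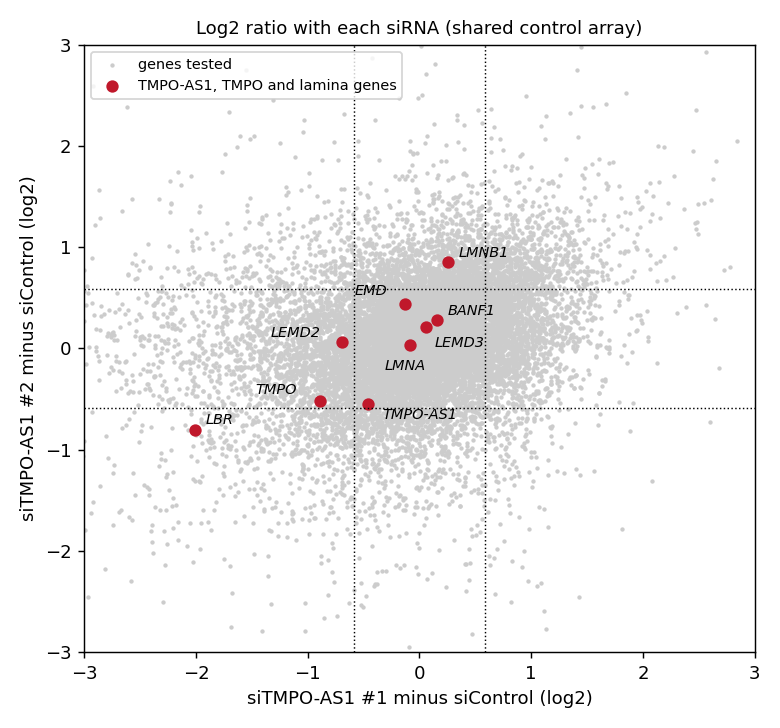
Log2 ratio to the control array with siTMPO-AS1 #1 (horizontal axis) and #2 (vertical axis) for all 16808 genes tested (grey, of which 147 fall outside the drawn range of 3) and the 9 tested genes followed here (red). Dotted lines mark 1.5-fold; LBR lies beyond both lower lines, TMPO beyond 1 of them, and LMNB1 above the upper line for #2. Both axes share the control array.

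Pseudogenes of TMPO and BANF1 that passed the filter, 1 and 4 in number, had ratios on the same side as their parents. Of the 16808 genes tested, 4272 lay below control on both siRNA arrays and 5954 lay above it on both. TMPOP2 was lower and BANF1P1 higher by 1.5-fold with both siRNAs, against 4.07% and 5.42% of all genes tested. TMPOP2 had 7.05 in control cells, 6.42 with #1 and 6.26 with #2 (ratios -0.62 and -0.78). BANF1P1 had 8.91, 9.53 and 9.81 (ratios 0.62 and 0.90), and BANF1P3 had 13.50, 13.88 and 14.07 (0.37 and 0.56). BANF1P2 had ratios of 0.20 and 0.53 and BANF1P4 had 0.46 and 0.08, the last of which became -0.01 after quantile normalization. The 2 under the filter did not share this: TMPOP1 had 0.39 and -0.02, and BANF1P5 had -0.32 and -0.41. Probe sets of near-identical copies can take up RNA of the parent gene, so the values of the copies and the parents are uncertain to that extent and are not independent of each other.

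**Figure D3:**
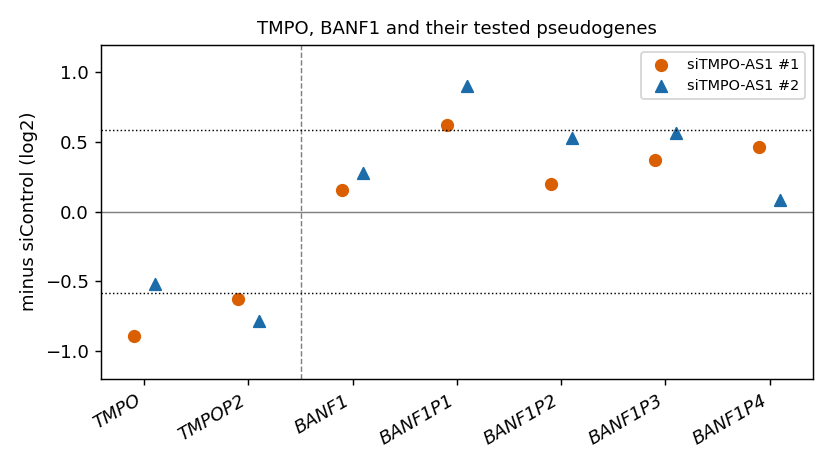
Log2 ratio to the control array (vertical axis) of TMPO, BANF1 and their pseudogenes that passed the dim filter, with circles for siTMPO-AS1 #1 and triangles for #2, 1 array each. TMPO and TMPOP2 lie below 0 with both siRNAs, and BANF1 with its 4 pseudogenes lies above 0; dotted lines mark 1.5-fold.

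Protein-coding neighbours of TMPO were followed for 3 genes on each side in the RefSeq order. CDK17 had 14.07, 13.16 and 13.73 (ratios -0.90 and -0.34), and IKBIP, an interaction partner of the kinase IKBKB, had 8.99, 8.22 and 8.09 (-0.77 and -0.90). Both were below control with both siRNAs, as was TMPO. Of the 16808 genes tested, 4272 were below control on both siRNA arrays, and both ratios share that control array. NEDD1, which recruits gamma-tubulin to the spindle, had -0.97 and 1.07, and APAF1, the core of the apoptosome, had 1.09 and -0.70, so these went opposite ways. CFAP54 was under the filter, and SLC25A3 had no probe set with 1 symbol. The genes with the most similar pair of ratios to TMPO, by Euclidean distance between the pairs, were the pseudogene NAP1L1P3 (-0.92 and -0.51), SP100, a nuclear body protein gene (-0.86 and -0.53), and C7orf46, whose current RefSeq symbol is FAM221A (-0.92 and -0.51). Within a distance of 0.1 of TMPO there were 41 genes. For TMPO-AS1 the nearest were OGN (-0.46 and -0.54), PRKRIRP7 (-0.46 and -0.54) and CCDC150 (-0.45 and -0.55), with 105 genes within 0.1. With so many genes at that distance, the pattern marks no gene out.

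Lists of related genes are described below by counts past 1.5-fold. Over all genes tested, 18.8% were lower and 16.6% higher with #1, and 10.4% lower and 16.1% higher with #2, with medians of 0.02 and 0.09. Each list is small, and counts near these shares say nothing particular of it.

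Inner nuclear membrane and torsin genes beyond the 10 went both ways with #1, and 0 were higher by 1.5-fold with #2. Of 12 listed, 10 were tested, with medians of -0.0047 (#1) and -0.41 (#2). With #1, 3 of 10 were lower (all genes 18.8%) and 1 higher (16.6%), and with #2, 5 of 10 were lower (10.4%) and 0 higher (16.1%). NEMP1, an inner membrane protein needed for nuclear stiffness and fertility in animals, had 12.78 in control cells, 9.01 with #1 and 11.24 with #2 (ratios -3.77 and -1.54). TOR1AIP2, also called LULL1, which activates torsin ATPases from the endoplasmic reticulum, had 12.22, 11.05 and 10.70 (-1.17 and -1.53). These 2 of the 10 tested genes were lower by 1.5-fold with both siRNAs, against 4.07% of all genes tested. TOR1A, the torsin ATPase gene, had 13.36, 12.15 and 13.19 (-1.21 and -0.16). PRR14 (0.46 and -2.12), TMEM43 (0.56 and -0.68) and NRM (0.67 and -0.60) were lower by 1.5-fold with #2 but above control with #1.

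Chromatin partners of the lamina, 7 of 8 tested, had medians of -0.10 and -0.12. With #1, 3 of 7 were lower (all genes 18.8%) and 2 higher (16.6%), and with #2, 2 of 7 were lower (10.4%) and 1 higher (16.1%). CBX1, the gene of HP1 beta, had 12.60 in control cells, 8.69 with #1 and 11.62 with #2 (ratios -3.91 and -0.98). CBX1 had its highest signal in control cells and its lowest with #1. CBX3, the gene of HP1 gamma, had 16.34, 16.25 and 15.65 (-0.10 and -0.69). HDAC3, a histone deacetylase that LAP2 beta and emerin bind, had -0.80 and -0.25. GMCL1, the human relative of the Drosophila gene germ cell-less, had 11.82, 12.58 and 12.51, above control with both siRNAs (0.76 and 0.69), and HMGN5 had 0.53 and 0.42.

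Prelamin processing genes, 5 of 6 tested, had medians of 0.38 and 0.37. With #1, 2 of 5 were higher (all genes 16.6%) and 0 lower (18.8%). With #2, 1 of 5 was higher (16.1%) and 0 lower (10.4%). NARF, which binds prelamin A, had 10.72, 11.68 and 11.36 (ratios 0.97 and 0.64). ZMPSTE24, the protease that matures lamin A, had 13.37, 13.95 and 13.45 (0.59 and 0.09), and FNTB, a farnesyltransferase subunit, had 0.17 and 0.37. Genes of the LINC complex, the linkers that tie the nucleus to the cytoskeleton, were mostly dim, with 3 of 6 tested. By 1.5-fold, 0 were lower and 0 higher with #1, and 0 lower and 1 higher with #2. SYNE1, a giant nesprin gene, had 4.41, 4.76 and 4.76 (0.35 and 0.35). It passed the filter through the siRNA arrays, its control value being under 4.42, and it is the median gene of the 3 with either siRNA, so no median is read for this list. SUN1 (-0.47 and 0.70) and SYNE2 (0.52 and -0.18) went opposite ways. With the mean of probe sets, the SYNE2 ratio with #2 became 0.09.

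Genes of mitotic lamina disassembly and resealing, 12 of 13 tested, had medians of 0.10 and 0.46. With #1, 2 of 12 were higher (all genes 16.6%) and 1 lower (18.8%), and with #2, 4 of 12 were higher (16.1%) and 2 lower (10.4%). CTDNEP1, a nuclear envelope phosphatase that activates lipin, had 9.02 in control cells and 10.68 and 10.65 with the siRNAs (ratios 1.67 and 1.64). Its siRNA arrays were nearly equal, and control was the lowest. CHMP2A, an ESCRT subunit, had 0.44 and 0.49, and LPIN1, a lipin gene, had 0.39 and 0.80 and passed the filter through its siRNA arrays (control 4.17). VRK1, the kinase that phosphorylates BANF1 so that it leaves chromatin, had 11.59, 11.29 and 10.12 (-0.30 and -1.47). CDK1, the mitotic kinase that phosphorylates lamins, had 13.31, 11.00 and 13.27, low on the #1 array only.

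Senescence genes, 6 of 10 tested, had medians of -0.69 with #1 and 0.35 with #2. With #1, 3 of 6 were lower (all genes 18.8%) and 0 higher (16.6%), and with #2, 0 of 6 were lower (10.4%) and 2 higher (16.1%). One of those lower with #1, IL1A (ratios -0.88 and 0.45), lay under the filter level with #1 and passed the filter through the other arrays. The chemokine gene CXCL8 had 10.12, 4.999 and 10.01, and HMGB1, a chromatin protein gene, had 15.48, 13.73 and 15.74, both low with #1 alone. HMGB2 went the other way from HMGB1 with both siRNAs (0.29 and -0.13). The 2 genes higher with #2 were IL6, with 9.70, 9.43 and 11.12 (-0.27 and 1.42), and the CDK inhibitor gene CDKN1A. CDKN1A had 9.36, 8.85 and 10.08 (-0.51 and 0.73). CDKN2A (2.20, 2.36 and 2.33) lay under the filter on every array.

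**Figure D4:**
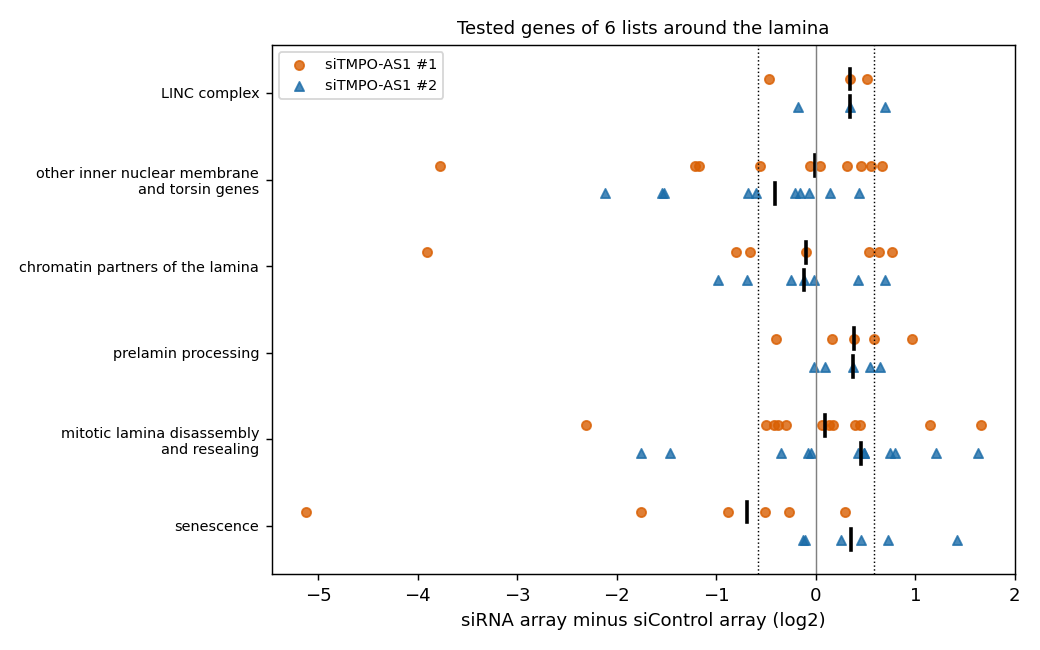
Log2 ratio to the control array (horizontal axis) of the tested genes of 6 lists, with circles for siTMPO-AS1 #1, triangles for #2 and black bars for the medians; each mark is 1 gene on 1 array. Dotted lines mark 1.5-fold. The lowest values are those of CXCL8, CBX1 and NEMP1 with #1.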

How the data were processed

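Total RNA (150 ng per sample) of 3 samples of MDA-MB-231 cells was labelled with biotin and hybridised to Affymetrix arrays, per the labels' protocols. The deposited log2 signals were made by the authors with RMA; the submitters' processing notes name Affymetrix Expression Console, without versions or a genome build. Of 138745 probe sets, 36176 were paired with 1 symbol by the platform annotation and 1119 with several, and the brightest set stood for a gene. No further normalization was applied. Both siRNA arrays were fitted against the control array with limma 3.58.1 in R 4.3.3 over 16808 genes, two-sided, with Benjamini-Hochberg adjustment; the fit was tested on simulated data. Size was judged at 1.5-fold. Promoter windows of 250 bases came from RefSeq. The genes and lists were chosen with earlier results of these data known. From each list, up to 4 tested genes with the largest smaller ratio among those on the same side with both siRNAs were named. Any past 1.5-fold with both were named too. CBX3, ZEB1, SUN1, SYNE2, PRR14, TMEM43, NRM, CDK1, HMGB1, HMGB2, CDKN1A, CDKN2A, IL1A, IL6, the pseudogenes and markers were chosen after their values were seen. Alternatives covered the dim filter, probe set summary, scaling, variance trend, fold threshold and each siRNA array left out.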

Additional observations from a re-analysis of the deposited data

How the results depend on the processing

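No paired analysis was possible because the control has 1 array. For the 9 tested genes, the limma mean ratio kept its direction in 53 of 53 values, with adjusted p of 1.00 throughout. These values covered other filters, scalings, probe set summaries and the intensity trend. Each of these genes had 1 probe set, so the filters, the summary and the trend could not change its mean ratio. Only centred arrays and quantile normalization could have turned a direction, and neither did. With 1 siRNA array left out, the direction turned for LMNA (from -0.087 to 0.039), EMD (from -0.13 to 0.44) and LEMD2 (from -0.69 to 0.061), where each pair gives the value of either siRNA alone. The count of genes lower by 1.5-fold with #2 went from 1 to 2 with arrays centred on their median, which took TMPO-AS1 past the threshold (-0.61), and to 3 after quantile normalization, which added TMPO-AS1 (-0.62) and TMPO (-0.63). Quantile normalization also took the count lower with #1 from 3 to 2, since LEMD2 (-0.58) no longer passed 1.5-fold. The count lower with both siRNAs was 2 after quantile normalization, since TMPO passed, and 0 at 2-fold. With an siRNA array left out it ran from 1 to 3, and the count higher ran from 0 to 1. Medians of mean ratios moved by more than the spread between the siRNAs as follows. This spread was the SD of a list's medians with #1 and #2. Those medians were close together for the LINC complex (0.3466 and 0.3453), chromatin partners (-0.096 and -0.123) and prelamin processing (0.385 and 0.371). For these lists even a small shift counts as moved. No median is read for the LINC complex, as said above, and its values are given only to show how they shift. For the LINC complex, 0.17 in the main setting became -0.013 with no dim filter, 0.11 with the stricter filter (7.79), 0.11 with the mean of probe sets, 0.18 with centred arrays, 0.17 after quantile normalization and 0.35 to 0.35 with an array left out. For chromatin partners, -0.34 became -0.37 with the stricter filter, -0.11 with the mean of probe sets, -0.31 after quantile normalization and -0.12 to -0.10 with an array left out. For prelamin processing, 0.27 became 0.28 with centred arrays, 0.31 after quantile normalization and 0.37 to 0.38 with an array left out. For mitotic disassembly, 0.20 became 0.10 to 0.46 with an array left out. Where a filter was changed the genes tested changed, and for the other settings the cause was not tested.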
